A study of Mus musculus with 147 samples.

Results

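The genes described here encode the proteins of the cytosolic ribosome. They were taken by symbol, as every Rpl or Rps symbol followed by a number with at most a short letter suffix, plus Rplp0, Rplp1, Rplp2 and Rpsa, while S6 kinase, -ps and Gm symbols were left out. Of 35438 genes in the count tables, 84 met this rule, 52 of the large and 32 of the small subunit. GENCODE release 21 for the mouse lists 81 of them as protein coding and 3 (Rpl6l, Rpl32l and Rps4l) as pseudogenes. They lie on 19 chromosomes, and 4 of them (Rpl10, Rpl36a, Rpl39 and Rps4x) are on the X chromosome. The symbol rule misses Rps3a1, Fau and Rack1, which also encode ribosomal proteins, and these are given apart.

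Single YFP-positive cells were sorted from the kidney cortex of adult C57BL/6 mice of both sexes and lysed in the wells of a Fluidigm C1 circuit, where SMART-Seq v4 copied polyadenylated RNA to full-length cDNA. In both genotypes YFP was driven by regulatory sequence of the renin gene, so the sort took cells in which that sequence was active. The WT renin cells (51 wells) came from mice with an intact renin gene (Ren1c+/+ Ren1c-YFP). The Renin-null cells (96 wells) came from mice without it (Ren1c-/- Ren1c-YFP, also called Ren1c-KO), which received saline injections in their first days, and were sequenced as the libraries YFP1 and YFP2 of 48 wells each. Cells of several mice were pooled and the labels give no mouse or capture for a well, so each genotype is 1 sample, no test between genotypes was possible, and capture, sequencing library and genotype cannot be told apart. The chemistry carries no molecular identifiers, and the 95% intervals given below cover counting error only.

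A ribosome is built from large and small subunits, in which the proteins surround a core of ribosomal RNA. The small subunit reads the mRNA, and the large subunit joins the amino acids and passes the growing chain out through a tunnel. Because most of these proteins are needed in the same number of copies, ribosomal protein mRNAs are made together at high levels in nearly every cell. Most of these mRNAs begin with an unbroken run of pyrimidines, the terminal oligopyrimidine (TOP) start, through which mTOR and Larp1 govern their translation.

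The annotated start sites of these genes show how often RefSeq placed the start in such a run. The starts were taken as annotated and not set against mapped starts, so the start of the mRNA itself may differ. RefSeq (GRCm38.p6) gave a promoter for 62 of the 84 genes, and in 37.1% of these the annotated start lay in a run of at least 5 pyrimidines, against 18.6% of 27025 genes. The windows below hold 15 bases on each side of the start and are shown because they include genes at either end of the order of genotype ratios given further on, with the pyrimidine run at the start in capitals.
Rpl14, chr9:120571502-120571531, plus strand: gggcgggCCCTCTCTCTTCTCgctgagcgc
Rps6, chr4:86857353-86857382, minus strand: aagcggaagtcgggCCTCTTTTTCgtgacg
Rps27, chr3:90213634-90213663, minus strand: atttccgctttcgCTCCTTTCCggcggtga
Rps24, chr14:24490663-24490692, plus strand: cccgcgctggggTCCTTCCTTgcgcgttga
Rps21, chr2:180257364-180257393, plus strand: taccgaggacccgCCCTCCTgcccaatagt
Rps7, chr12:28635939-28635968, minus strand: gcttccggtttccaCCCacctacttccgct
Rps26, chr10:128626492-128626521, minus strand: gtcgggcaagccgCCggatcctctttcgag
The run held 14 bases in Rpl14, which was higher in Renin-null cells, and 9 bases in Rps24, which was lower by summed counts. Rps7 and Rps26, with runs of 3 and 2 bases at the annotated start, had larger ratios than Rps6 and Rps27, with 10 and 9. Only the run at the annotated start was counted. In Rps26 a longer run lies just after the marked bases, so its run length rests on the annotation. A second annotated start of Rps21 and of Rps24 lies further along each gene and in no run of that length.

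Within the 300 bases of the RefSeq promoters, from 250 before to 50 after the start, CCGGAAG on either strand, the core to which ETS factors bind, was found in 40.3% of the 62 genes and in 9.93% of all 27025. AAGATGG, a core of the YY1 site, was found in 14.5% and 7.28%, and TATAAA in 11.3% and 15.7%. CCGGAAG ends with the 3 letters that begin AAGATGG, so matches to both can overlap. The stretches below show the match, in capitals, upstream of genes that were among the most abundant or had a large ratio.
Rpl41, chr10:128549207-128549235, minus strand: tagtaaggcagCCGGAAGtcgctgtctcg
Rps25, chr9:44407630-44407658, plus strand: cacccattgccCCGGAAGtactctctcga
Rps6, chr4:86857441-86857469, minus strand: ttaatctacgcCCGGAAGtaacgcccctc
Rps26, chr10:128626703-128626731, minus strand: ttaatcttccgCCGGAAGgttaaatagtt
The match began 56 bases before the start in Rpl41, 73 in Rps25, 91 in Rps6 and 214 in Rps26.

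The labels were first set against the renin gene. Ren1, which encodes renin, held 12.0% of the counts outside the mitochondrial genome in WT renin cells and was counted in 51 of 51 wells, from 740 to 523994 counts per 1000000 non-mitochondrial counts (CPM) with a median of 43828 CPM. Only 54 counts were left in 16 of the 96 Renin-null wells, at most 19.5 CPM. Akr1b7, an aldo-keto reductase of renin cells, had a summed level of 5679 CPM (WT) and 2257 CPM (Renin-null). Totals ran from 26401 to 17124854 counts per well in WT and from 3628 to 14505243 in Renin-null wells, with medians of 1525970 and 4107950.

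Libraries and wells stood apart in 2 ways that bear on every value below. The 13 mt- genes of the mitochondrial genome took more than 50% of the counts in 30 of 51 WT wells, 13 of 48 YFP1 wells and 10 of 48 YFP2 wells, and wells that reached 100000 counts and 1000 genes with no more than 25% mt- counts, called passing here, numbered 15, 28 and 29. In addition, 4 pairs of wells had profiles that correlated above 0.95 over all genes, 3 of them between YFP1 and YFP2 and 1 within YFP2. The share of ribosomal protein counts was therefore taken over non-mt- counts and is given by genotype, library and well quality.

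Over all wells, ribosomal protein genes held a slightly larger share of counts in Renin-null than in WT renin cells, but the median wells lay close together. The summed share was 2.52% in WT (interval 2.518% to 2.523%), 3.02% in YFP1 and 3.42% in YFP2, which made the Renin-null share of 3.24% 1.29-fold that of WT, a log2 ratio of 0.36 (0.360 to 0.364). The median well stood at 2.53% in WT, 2.39% in YFP1 and 2.83% in YFP2. Wells spread from 0.0768% to 10.0% in WT, from 0.0526% to 9.49% in YFP1 and from 0.122% to 9.28% in YFP2, so all 3 libraries overlapped over nearly their whole range.

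The size and sign of this ratio rested on the scale. Weighting each well equally gave a log2 ratio of -0.02 for means and -0.01 for medians, and leaving Ren1 out of the denominator gave 0.18. Scaling by TMM, which sets the scale from a trimmed mean of the genes' ratios, moved every ratio by -0.55 and gave -0.18. With the near-identical wells counted once the ratio was 0.33. YFP2 stood above YFP1 by 0.18 on the log2 scale over all wells and by 0.11 in passing wells, against 0.40 between Renin-null and WT passing wells.

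**Figure D1:**
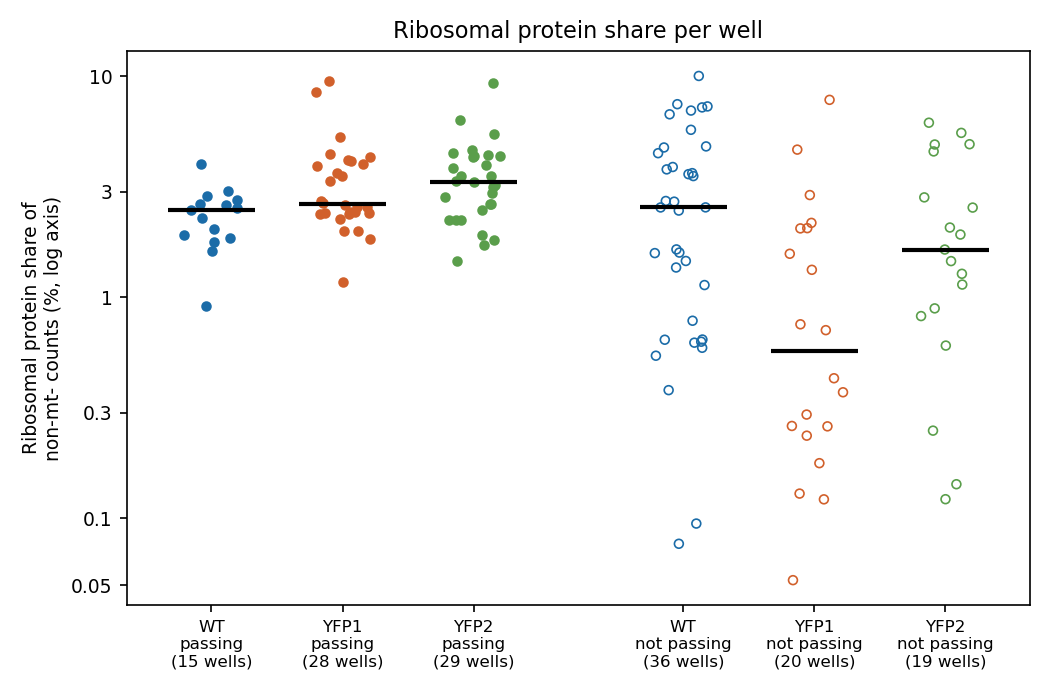
Each point is 1 well, with its ribosomal protein share of non-mt- counts in percent on a log axis, filled for passing and open for other wells, and each black bar is the median of the wells. In passing wells the medians are 2.47% (WT), 2.63% (YFP1) and 3.31% (YFP2), while in other wells they are 2.55%, 0.570% and 1.64%.

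By summed counts, passing wells of both Renin-null libraries held a larger share than those of WT. The 15 WT wells ran from 0.909% to 4.00% with a median of 2.47%, and the 57 Renin-null wells from 1.17% to 9.49% with a median of 3.15%. The groups overlapped, with the highest Renin-null wells above every WT passing well. The summed ratio was 0.40 on the log2 scale, 0.34 for YFP1 and 0.45 for YFP2.

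Wells rich in mitochondrial counts went the other way, and did so through the Renin-null libraries. Among wells with at most 10% mt- counts the median share was 2.38% in 14 WT wells, 2.55% in 20 YFP1 wells and 3.15% in 23 YFP2 wells. Above 50% mt- counts it was 2.71% in 30 WT wells, 0.262% in 13 YFP1 wells and 0.856% in 10 YFP2 wells. The mitochondria-rich Renin-null wells thus held a median 0.372%, from 0.0526% to 2.05%, all below the WT median and overlapping the WT range of 0.0768% to 10.0%. Much of the denominator of these wells was Gm28437, Gm29216 and Gm10925, nuclear sequences that resemble mitochondrial genes, which held a median 41.9% of non-mt- counts in the WT wells (23.2% to 65.6%) and 44.8% in the Renin-null wells (17.6% to 81.3%). Without them, an alternative chosen after seeing the data, the medians above 50% mt- counts were 4.68% (WT) and 0.829% (Renin-null), with the highest Renin-null well at 4.52%. Between these classes the order differed. At 10% to 25% mt- counts the medians were 0.909% in 3 WT and 4.02% in 17 Renin-null wells, and at 25% to 50% they were 0.889% in 4 and 2.90% in 13. The summed share had the opposite order at 10% to 25%, with 3.96% in WT and 3.44% in Renin-null wells. At 25% to 50% it was 2.58% and 4.84%.

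Across wells, the Pearson correlation of ribosomal protein share with mt- share was 0.28 in WT (Spearman 0.17, n = 51), -0.60 in YFP1 (-0.58, n = 48) and -0.51 in YFP2 (-0.37, n = 48), and within passing wells Pearson's value was -0.16, -0.02 and 0.17. The wells of a library share their preparation, and the share also varied with depth, so these values are descriptions. The wells above 50% mt- counts had a median of 354647 non-mt- counts in WT, 351680 in YFP1 and 140412 in YFP2, and the part of depth in their shares was not tested.

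**Figure D2:**
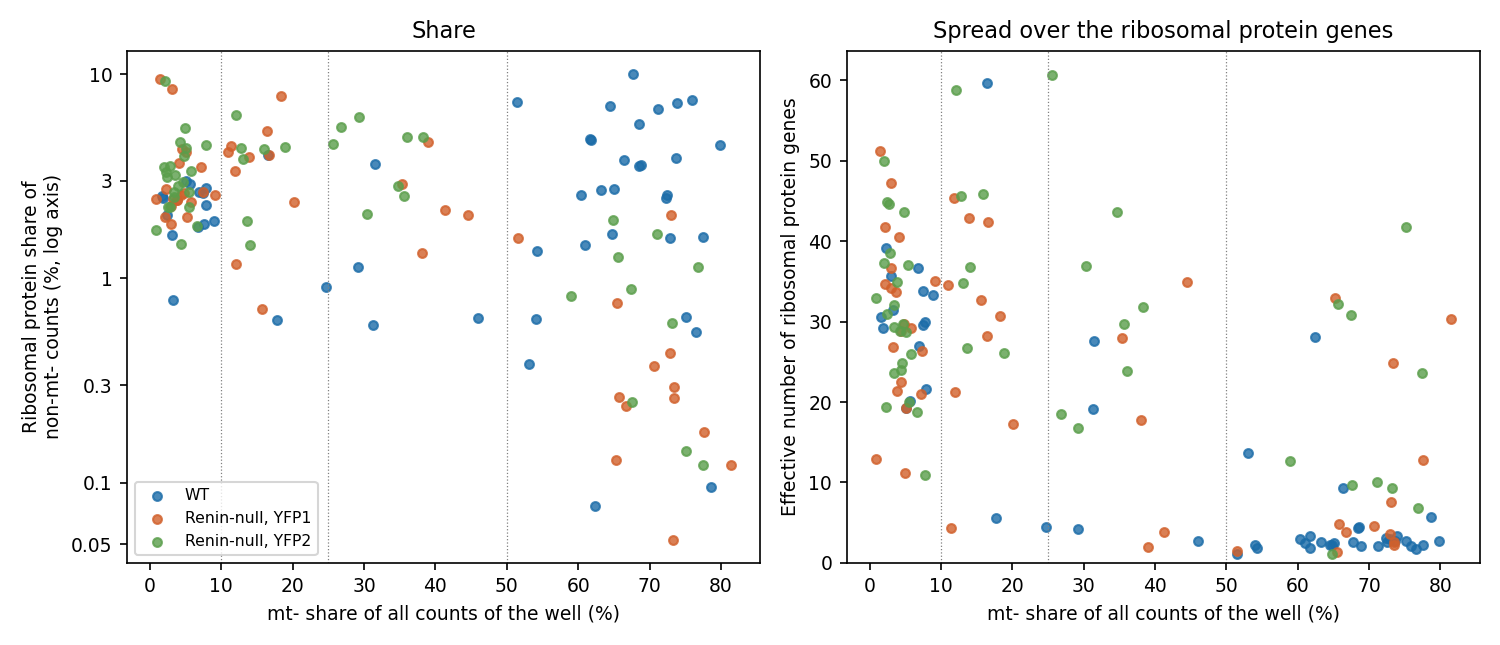
Left, the ribosomal protein share of non-mt- counts (percent, log axis) against the mt- share of all counts (percent) for each of 147 wells; right, the effective number of ribosomal protein genes of the same wells, with dotted lines at 10%, 25% and 50%. Above 50%, WT wells keep a median share of 2.71% but a median of only 2.61 effective genes.

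The median WT well rich in mitochondrial counts held its ribosomal protein counts in a few genes. As a measure of evenness, the effective number of genes (the inverse of the summed squared shares of the 84 genes) was taken in every well. Its median was 30.3 in WT wells with at most 10% mt- counts and 2.61 (range 1.13 to 28.1) in those above 50%. In Renin-null cells it was 29.7 and 9.36 (range 1.12 to 41.8). The single leading gene took a median of 51.3% of the ribosomal protein counts in the 30 mitochondria-rich WT wells, and more than 50% in 18 of them, against 5 of 23 Renin-null wells.

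The leading gene differed from well to well. In those 30 WT wells 24 different genes led. The WT well with the highest share, 10.0% of its 788590 non-mt- counts, held 2.55 effective genes. Wells at 7.46%, 7.29% and 6.98% were led by Rps9 (66.5%), Rps25 (94.1%) and Rpl24 (56.5%). The 5 WT wells of highest share had between 25.1% and 53.8% of their non-mt- counts in Gm28437, Gm29216 and Gm10925, and between 0.19% and 11.8% in the 4 renin cell markers.

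Thinning each well to 10000 non-mt- counts put the wells on 1 depth. A median of 47 ribosomal protein genes was then counted in WT wells with at most 10% mt- counts and 48 in such Renin-null wells, against 13 and 11 in wells above 50%. Genes of any kind counted at this depth had medians of 1239.5 and 1389 in the former and 529.5 and 618 in the latter. The lower number of ribosomal protein genes in mitochondria-rich wells was thus seen in both genotypes and along with fewer genes overall. The unthinned medians of ribosomal protein genes with a count were 54 in both genotypes above 50% mt- counts, and 8 Renin-null wells were too shallow to be thinned.

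The highest well of each Renin-null library spread its counts over many ribosomal protein genes, and some others near the top did not. The highest YFP1 well, at 9.49% and 1.45% mt- counts, held 51.2 effective genes, and Spp1, which encodes the secreted protein osteopontin, was its most abundant gene at 40605 CPM. The highest YFP2 well, at 9.28%, held 49.9 effective genes and was also led by Spp1, at 18920 CPM. The second YFP2 well, at 6.34%, had 10121 genes with a count and 2.32% of its counts in erythroid markers. A YFP1 well at 4.65% held 1.94 effective genes, and the YFP2 wells at 6.15% and 5.54% held 16.8 and 18.5. The highest YFP1 and YFP2 wells held 0.00035% and 0.00016% of non-mt- counts in the renin cell markers and 0.0019% and 0.0159% in the smooth muscle markers. The second YFP1 well, at 8.49%, had 0.108% in leukocyte markers, and the YFP2 well at 5.48% had 0.835% in proximal tubule markers. The part of these wells' identity in their share was not tested.

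The 4 renin cell markers held 12.7% of non-mt- counts in WT, led by Ren1, and 0.209% and 0.262% in YFP1 and YFP2, led by Akr1b7. Apart from smooth muscle, the lists of other cell types were small beside the ribosomal protein share. Smooth muscle markers (6 genes, led by Acta2 in WT and Tagln in both Renin-null libraries, none at 0) held 1.61%, 1.52% and 1.58% of non-mt- counts in WT, YFP1 and YFP2 when summed, but 0.0908%, 0.544% and 0.804% in the median well. Fibroblast markers held 0.0849%, 0.0590% and 0.205%, led by Pdgfrb, Col1a2 and Col3a1, with none of 7 at 0. Podocyte markers held 0.0108%, 0.0163% and 0.1004%, led by Synpo in WT and YFP1 and by Nphs1 in YFP2, with 2 of 5 at 0 in WT. Erythroid markers held 0.00463%, 0.00104% and 0.0876%, led by Alas2, Hbb-bs and Hba-a2, with 3 of 5 at 0 in WT.

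Endothelial markers held 0.00405%, 0.00296% and 0.0429%, led by Emcn, Kdr and Emcn, with 2 of 6 at 0 in WT. Proximal tubule markers held 0.00368%, 0.0319% and 0.0409%, led by Slc34a1, Slc34a1 and Miox, with 1 of 7 at 0 in WT. Loop and distal tubule, collecting duct and leukocyte markers, led by Calb1, Slc12a1 or Slc12a3, by Fxyd4 and by Ptprc, held at most 0.0215%, 0.0163% and 0.000718% in any library, with 1 of 5, 0 of 5 and 5 of 6 at 0 in WT. Several of these lists were larger in Renin-null cells, as the ribosomal protein share was, and their part in it was not tested. Genes of the response to cell dissociation, led by Fos, held 1.13%, 0.929% and 1.17%.

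Gene by gene, most ribosomal protein genes were modestly higher in Renin-null cells, as most genes were, and few differed by much. Of the 84 genes, 80 had at least 100 counts over all wells and were compared. Their median log2 ratio of CPM, Renin-null over WT, was 0.34 (1.27-fold), with quartiles of 0.01 and 0.87, and 60 (75%) were higher and 20 lower, where 66.9% of all genes tested were higher. At least 2-fold higher were 17 of 80 (21.2%), where 51.7% of all 15529 genes with that many counts were. At least 2-fold lower was 0 of 80, where 20.0% of all genes were.

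The ribosomal protein genes varied much less than other genes and lay below their middle. The median of all genes was 1.13 with quartiles of -0.59 and 4.03, so the ribosomal protein median was lower by 0.79, and 68 of 80 lay below the median gene. Among the 6392 genes with at least 10000 counts the median was 0.58, and 15 of 78 ribosomal protein genes were at least 2-fold higher (background 42.0%) and 0 lower (background 20.4%). Under TMM the medians became -0.20 for ribosomal protein genes and 0.58 for all genes, and 6 ribosomal protein genes were at least 2-fold higher (background 45.0%) and 6 lower (background 26.8%). The direction of the ribosomal protein median thus depended on the scale, which moves it and the median gene alike.

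The libraries are given side by side, and both are set against the same WT wells. Against WT, 12 of 80 genes were at least 2-fold higher in YFP1 (background 43.8%) and 20 in YFP2 (background 47.7%), while 2 (Rps12 and Rps20) were at least 2-fold lower in YFP1 (background 29.5%) and 0 in YFP2 (background 24.2%). Between the libraries themselves, 5 genes were at least 2-fold higher in YFP2 (background 38.3%) and 3 lower (background 27.8%). In passing wells the median was 0.43, where all genes had one of 1.24. With the highest well of each genotype left out for each gene, 24 of 80 were at least 2-fold higher (background 63.3%) and 0 lower (background 11.8%).

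**Figure D3:**
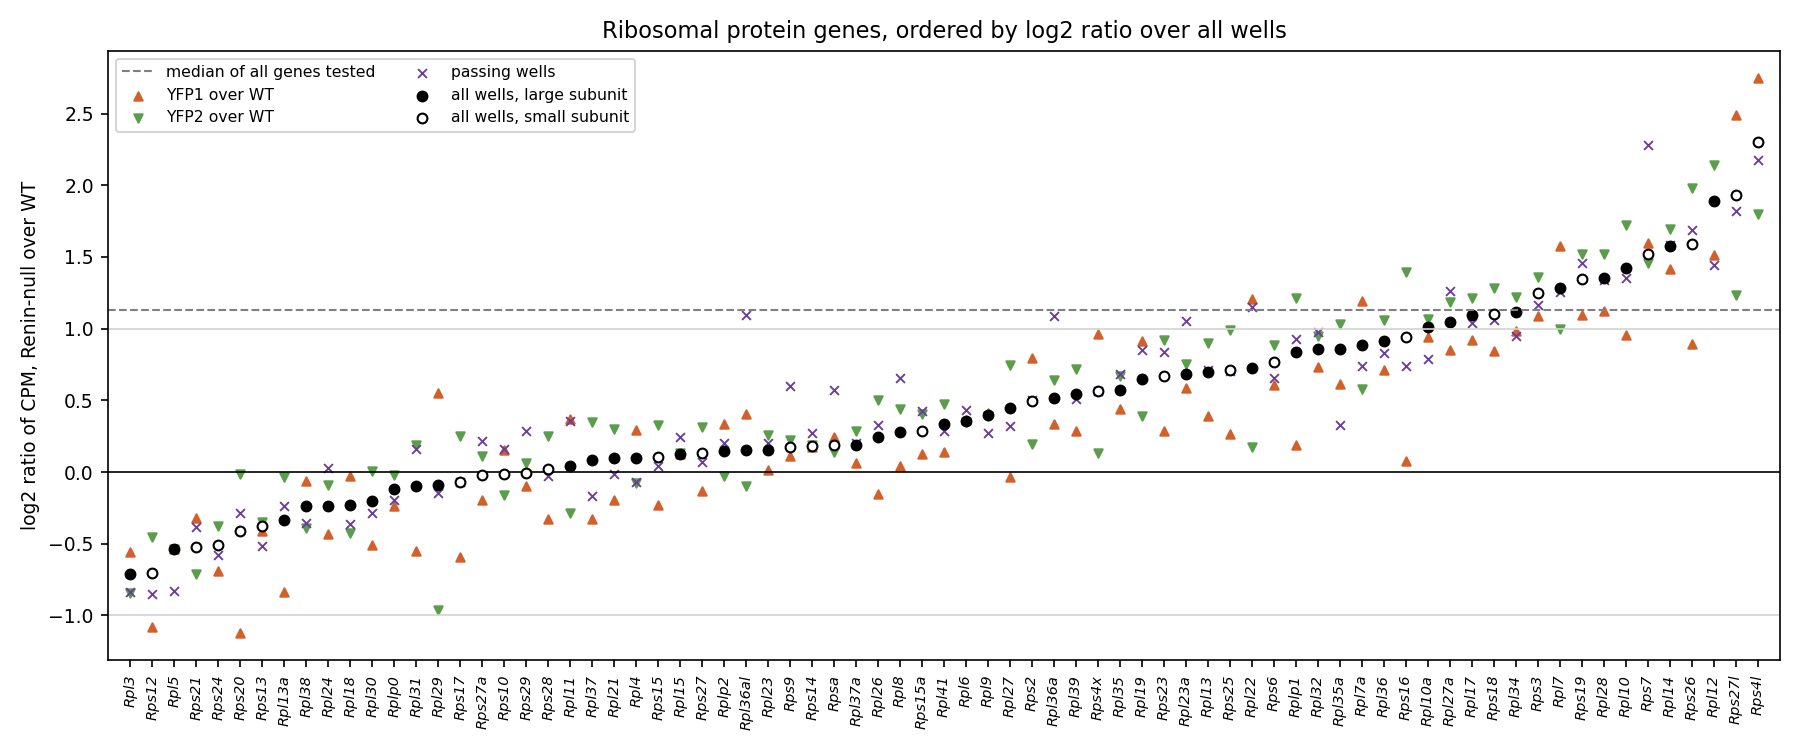
Log2 ratio of CPM, Renin-null over WT, for 75 ribosomal protein genes in order (dots, filled for the large subunit), with YFP1 and YFP2 against WT (triangles) and passing wells (crosses); Rpl32l, at 6.19, is not drawn. Values run from -0.71 (Rpl3) to 2.30 (Rps4l), and most lie below the dashed median of all genes at 1.13.

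By summed counts, the subunits did not part in a way that both libraries shared. By gene medians over all wells, the large subunit stood above the small in each library. The 48 large subunit genes had a median log2 ratio of 0.38, with 38 higher and 10 at least 2-fold higher, and the 32 small subunit genes one of 0.24, with 22 higher and 7 at least 2-fold higher. Taken against WT, YFP1 had a large subunit median of 0.36 beside a small subunit median of 0.13, while YFP2 had 0.42 beside 0.28. In passing wells this order was opposite, with medians of 0.40 (large) and 0.46 (small). Large subunit genes held 60.4% of ribosomal protein counts in WT, 62.7% in YFP1 and 58.96% in YFP2, so WT lay between the Renin-null libraries. The log2 ratio of large over small subunit counts was 0.61 (WT) and 0.62 (Renin-null), a difference of 0.01 that became -0.13 in passing wells.

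The most abundant ribosomal protein genes were largely the same in both genotypes. Rpl41, the smallest ribosomal protein, had a summed level of 1005 CPM in WT, 1109 CPM in YFP1 and 1395 CPM in YFP2. Its wells ran from 4.85 CPM through a median of 165 CPM to 4185 CPM in WT and from 0 through 876 to 4375 CPM in Renin-null cells. In passing wells the medians were 917 and 1225 CPM, and the ranges overlapped (275 to 1858 and 1.52 to 3283 CPM). Rpl41 was counted in 51 of 51 and 93 of 96 wells and its log2 ratio was 0.33.

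Rpl3, a core protein near the peptidyl transferase centre, was the most abundant by summed counts in WT, at 1448 CPM, and stood at 984 CPM in YFP1 and 806 CPM in YFP2. Wells ran from 0 through 66.5 to 4634 CPM in WT and from 0 through 199 to 5024 CPM in Renin-null cells, and in passing wells the medians were 735 and 593 CPM. The summed ratio of -0.71 (-0.72 to -0.70) and the order of the median wells over all wells were thus opposite. Against WT the log2 ratio was -0.56 in YFP1 and -0.85 in YFP2, and in passing wells it was -0.84, while the mean over wells gave 0.47.

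Rps19, the gene most often mutated in Diamond-Blackfan anaemia, stood at 414 CPM in WT, 885 CPM in YFP1 and 1186 CPM in YFP2. In passing wells it ran from 0 through 244 to 1297 CPM in WT and from 1.13 through 894 to 3510 CPM in Renin-null cells. Its log2 ratio was 1.34 (1.33 to 1.36), 1.46 in passing wells, 0.80 under TMM and 0.43 by the mean over wells. Other genes of this group were Rpl4 (909 and 975 CPM in WT and Renin-null), Rps6 (525 and 894 CPM), Rps25 (530 and 867 CPM) and Rplp0 (724 and 669 CPM). The log2 ratio of Rps25 was 0.71, and -1.16 by the mean over wells. Rps6, the substrate of S6 kinase, had a log2 ratio of 0.77, and Rplp0, which holds the stalk that recruits elongation factors, one of -0.12.

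Per kilobase of transcript, taken as the median length of the gene's coding transcripts, Rpl41 was highest in both genotypes, at 1910 CPM per kb in WT and 2407 CPM per kb in Renin-null cells. In WT it was followed by Rpl3 (1775) and Rps24 (1103 CPM per kb), and in Renin-null cells by Rps19 (1650) and Rps25 (1502 CPM per kb). Across the 80 genes, summed levels in WT and Renin-null cells had a Spearman correlation of 0.82, and YFP1 and YFP2 one of 0.82 as well. In the mitochondria-rich wells against passing wells of the same genotype it was 0.41 in WT and 0.68 in Renin-null cells, over the same genes, which are not replicates.

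**Figure D4:**
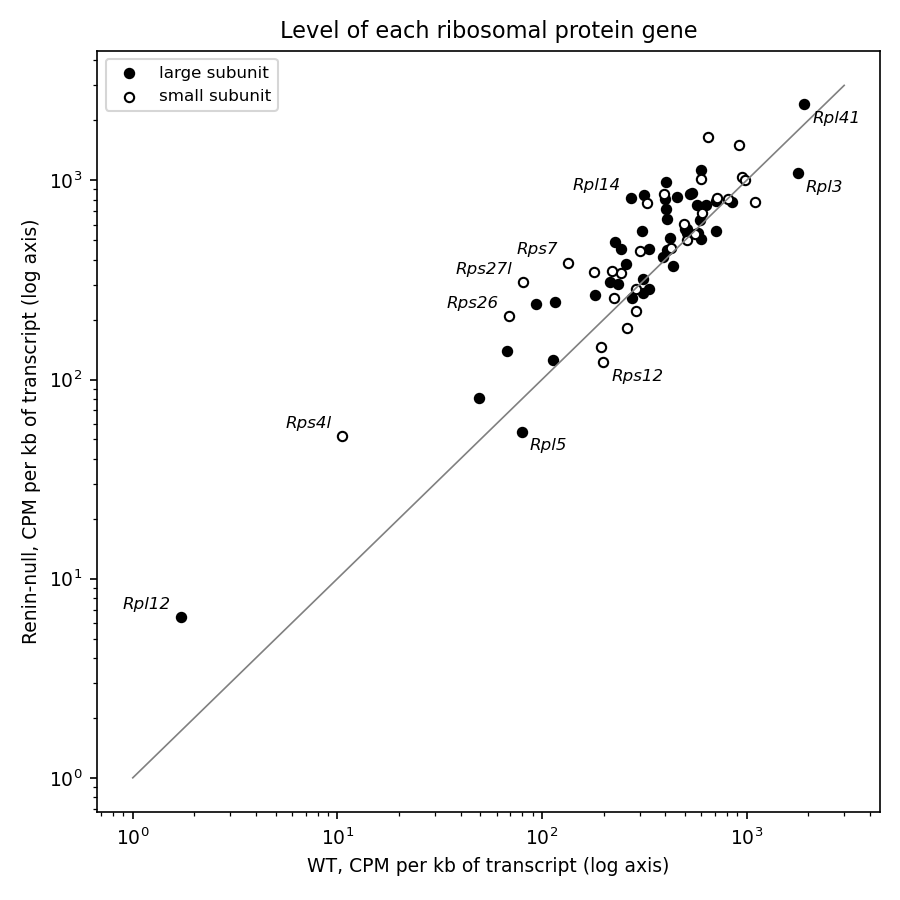
Level of each of 75 ribosomal protein genes in WT (horizontal) and Renin-null cells (vertical), as summed CPM per kb of transcript on log axes, filled for the large subunit; the line marks equal levels. Rpl41 is highest in both, at 1910 and 2407 CPM per kb, and Rpl12 lowest, at 1.72 and 6.40 CPM per kb.

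Among genes with at least 100 counts in each genotype and 1 direction in both libraries, the largest ratios belonged to Rps4l, Rps27l, Rpl12, Rps26, Rpl14 and Rps7. Rpl14, a large subunit protein, stood at 275 CPM in WT, 734 CPM in YFP1 and 889 CPM in YFP2. Its passing wells ran from 0 through 47.9 to 858 CPM in WT and from 1.71 through 720 to 5428 CPM in Renin-null cells, so that the groups overlapped while their medians stood far apart. Its log2 ratio was 1.58 (1.56 to 1.59), 1.58 in passing wells and 1.73 with the highest well of each genotype left out.

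Rps7, a small subunit protein that is mutated in some Diamond-Blackfan families, stood at 119 CPM in WT, 360 CPM in YFP1 and 327 CPM in YFP2. Its passing wells ran from 0 through 8.67 to 309 CPM in WT and from 0.51 through 194 to 1782 CPM in Renin-null cells. Its log2 ratio was 1.52, and 2.28 in passing wells. Over all wells, however, a WT well outside the passing wells reached 16798 CPM, and the mean over wells put the ratio at -0.998. Rps26, which lies at the mRNA exit channel, stood at 47.1 CPM in WT, 87.4 CPM in YFP1 and 185 CPM in YFP2, with passing-well medians of 5.63 and 45.4 CPM and a log2 ratio of 1.59.

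In Rps27l, Rps4l and Rpl12, 1 well held most of the WT counts. Rps27l, a paralogue of Rps27 that p53 induces, had 6374 WT counts, of which 84.6% lay in 1 well, and 54853 Renin-null counts, of which 12.9% lay in 1 well. Its log2 ratio was 1.93 over all wells and 4.44 with the highest well of each genotype left out, and it was counted in 14 of 51 and 68 of 96 wells. Rps4l had 99.2% of its 1311 WT counts in 1 well, and its log2 ratio of 2.30 became 8.59. Outside those WT wells, Rps27l was counted in 10 of 14 wells that shared an index with the leading well and in 3 of 36 that shared none, and Rps4l in 6 of 14 and 1 of 36.

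At the other end, Rpl3, Rps12, Rpl5, Rps21 and Rps24 were among the genes with the smallest ratios. Rpl3 is described above, and Rpl5 below with its copies. Rps12, Rps21 and Rps24, all of the small subunit, kept their direction in passing wells by summed counts. Rps12 stood at 97.9 CPM in WT, 46.2 CPM in YFP1 and 71.4 CPM in YFP2, with a log2 ratio of -0.70 and -0.85 in passing wells. Rps21 stood at 103, 82.3 and 62.6 CPM, with ratios of -0.52 and -0.39. Rps24 stood at 579, 359 and 447 CPM, with ratios of -0.51 and -0.58. The passing-well ranges overlapped for each, from 0 to 660 CPM against 0 to 790 CPM in the case of Rps12. Passing-well medians in WT and Renin-null cells were 33.4 and 19.4 CPM for Rps12 and 46.3 and 25.0 CPM for Rps21. For Rps24 they were 313 and 348 CPM, opposite to its summed ratio. Over all wells the medians were 20.6 and 161 CPM for Rps24 and 3.13 and 7.52 CPM for Rps21, both opposite to the summed ratios, and 0 in both genotypes for Rps12.

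The same ratios looked different in wells above 50% mt- counts. There, 59 of 79 ribosomal protein genes were lower by at least 2-fold in Renin-null wells (background 29.2%) and 6 at least 2-fold higher (background 44.9%), with a median log2 ratio of -3.09 where all genes had one of 0.54. Rpl14 and Rps6, at 1.05 and 1.08, were among those higher, while Rps7 and Rps12 stood at -6.70 and -8.48.

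Functional groups within the ribosome, chosen with earlier results known, are described by counts and medians, beside the 51.7% of all genes at least 2-fold higher and the 20.0% lower. Of 20 genes mutated in Diamond-Blackfan anaemia, an inherited failure of red cell production, 3 (Rps7, Rps19 and Rps26) were at least 2-fold higher and 0 lower, with a median of 0.09 (-0.03 in YFP1 and 0.25 in YFP2). Of 9 proteins around the exit tunnel 1 (Rpl17, at 1.09, and -0.08 by the mean over wells) was at least 2-fold higher, with a median of 0.57, and of 8 at the mRNA channel and decoding centre 2 (Rps3 and Rps26) were, with a median of 0.30. The 4 genes of the stalk had a median of 0.49, with 1 (Rpl12) at least 2-fold higher, but with annotated copies added the median was 0.016 and Rpl12 stood at -0.24. Rpl5 and Rpl11, which carry the smallest ribosomal RNA of the large subunit and bind Mdm2, had log2 ratios of -0.54 and 0.05.

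Paralogues were mostly scarce. Rpl10l and Rpl39l, which stand in for X-linked genes in male germ cells, had 0 counts in either genotype, which allows up to 3 counts in each. Rpl3l, the striated muscle form of Rpl3, had 0 WT counts and 2 Renin-null counts. Their parents were abundant, with log2 ratios of 1.43 for Rpl10, 0.54 for Rpl39 and -0.71 for Rpl3. Rpl36al stood at 85.3 CPM (WT) and 94.8 CPM (Renin-null), with 52.02% of its WT counts in 1 well, and its parent Rpl36a at 104 and 149 CPM. The mean over wells gave log2 ratios of -3.15 and -2.53 for them, opposite to the summed 0.15 and 0.52. Rps27 and Rps4x, the parents of Rps27l and Rps4l, had log2 ratios of 0.13 and 0.57.

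Rpl32l had 1 WT count and 165 Renin-null counts, of which 56.4% lay in 1 well. Its log2 ratio of 6.19 had an interval of 3.70 to 11.5. Rpl6l had 5 and 15 counts and was not compared. The 4 genes that were not compared were Rpl3l, Rpl6l, Rpl10l and Rpl39l.

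Many ribosomal protein genes have processed copies in the genome that resemble their mRNA, and Salmon divides reads between them. Pseudogenes annotated in GENCODE that matched a ribosomal protein transcript at 90% identity or more over 80% of their own length or more numbered 1025 in the tables, for 78 of the 84 genes. Together they held 4.94% of the summed counts of genes and copies in WT and 5.26% in Renin-null cells. For 7 genes, however, copies held over 20% in at least 1 genotype.

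The split moved 2 of the named genes. Rpl5 had 18048 and 28044 counts, while its copy Gm15500 had 55101 and 204915, so that copies held 75.3% (WT) and 87.96% (Renin-null) of the total. The log2 ratio of Rpl5 was -0.54 alone, 0.57 by the mean over wells and 0.50 with its copies. Rpl12, part of the stalk base, had 338 and 2827 counts, while its copy Gm10275 had 16758 and 35152, and its log2 ratio of 1.89 became -0.24. With copies added to every gene, the median log2 ratio was 0.35 and 15 genes were at least 2-fold higher. Rpl27a, at 1.04 (-0.17 by the mean over wells), became 0.91, while Rpl28, at 1.36, became 1.29.

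Genes outside the symbol rule varied in direction. Rps3a1, a small subunit protein, stood at 656 CPM in WT, 990.5 CPM in YFP1 and 1122 CPM in YFP2, a log2 ratio of 0.70. Fau, which encodes a ribosomal protein fused to a ubiquitin-like sequence, had a ratio of 0.75, and Rack1, a scaffold on the small subunit, one of 0.88. Rack1 was lower than WT in YFP1, by 0.35, and higher in YFP2, at 1.43. The paralogues Rpl22l1 and Rpl7l1 had ratios of -0.38 (-0.26 in YFP1 and -0.47 in YFP2) and 0.05 (-0.84 and 0.51). Passing-well medians were 589 and 977 CPM for Rps3a1 and 177 and 263 CPM for Fau.

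Other translation lists are described in the same way, beside the 51.7% of all genes at least 2-fold higher and the 20.0% at least 2-fold lower. Elongation factors and other mRNAs known for a TOP start had a median log2 ratio of 0.01, with 1 of 16 (Eif3f) at least 2-fold higher and 1 (Eif4b) lower. Eif4b, an initiation factor that helps unwind mRNA, stood at 396 CPM (WT) and 49.3 CPM (Renin-null), Naca at 728 and 404 CPM, Eif3h at 42.0 and 81.8 CPM, and Eif3f at 9.50 and 61.7 CPM. Of 32 initiation factors 6 were at least 2-fold higher and 7 lower, with a median of -0.40. At its ends were Eif4h (-2.31) and Eif3d (-2.15), and Eif2b5 (2.55) and Eif2b4 (5.12), both with over 98% of WT counts in 1 well. The direction of Eif2b5 differed between the libraries, at -6.64 in YFP1 and 3.41 in YFP2.

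Of 31 ribosome biogenesis genes compared, 9 were at least 2-fold higher and 6 lower, with a median of -0.06, and of 0.13 in YFP1 and 0.29 in YFP2. Wdr43 (-4.39) and Nip7 (-3.09) were lowest, and Nop58 (1.82), of the box C/D particle that methylates ribosomal RNA, and Bysl (2.88) highest, with all WT counts of Bysl and 79.3% of those of Wdr43 in 1 well each. The list of mTOR, S6 kinase, Larp1 and Myc had a median of 0.67 over 17 genes, with 7 at least 2-fold higher and 6 lower, but a median of -0.09 in YFP1 and -0.81 in YFP2. Myc, which drives ribosome production, had 139 WT and 30638 Renin-null counts (0.88 and 86.2 CPM), a log2 ratio of 6.61 that was 6.52 in YFP1 and 6.69 in YFP2. Tsc1 (3.79, with 84.9% of its Renin-null counts in 1 well) was the other at that end, and Rps6ka2 (-4.12) and Rptor (-2.54) were at the low end, with 98.3% of WT Rptor counts in 1 well.

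Mitochondrial ribosomal proteins, encoded by nuclear genes, were closer to the median gene. Of 78 genes, 36 were at least 2-fold higher and 13 lower, with a median of 0.83. Mrps23 (-4.57) and Mrpl44 (-3.61) were lowest and Mrps6 (5.56) and Mrps10 (5.56) highest. In 1 well lay 88.4% of WT Mrps23 counts and 99.3% of WT Mrps6 counts. Likewise 1 well held 92.1% of Renin-null Mrps10 counts, with ratios of 6.68 in YFP1 and 1.29 in YFP2, and 97.3% of those of Mrpl44, with -2.48 and -8.42. Nuclear genes of the respiratory chain, at 1.57%, 1.42% and 1.60% of non-mt- counts in WT, YFP1 and YFP2, had a median of -0.03, with 9 of 75 at least 2-fold higher and 5 lower. Atp5a1 (-1.60) was among the lowest, and Ndufs8 (2.12) and Ndufs3 (2.75) were highest.

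**Figure D5:**
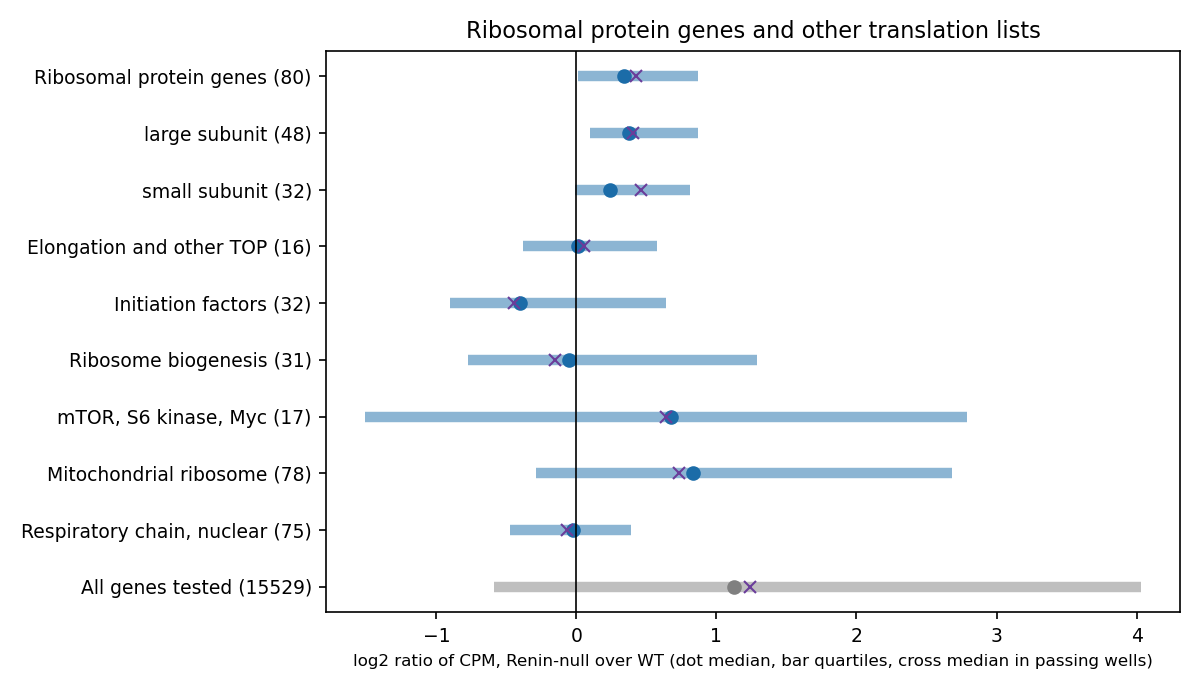
Median (dot) and quartiles (bar) of the log2 ratio of CPM, Renin-null over WT, for ribosomal protein genes, other translation lists and all genes tested, with the median in passing wells as a cross and the number of genes in parentheses. Ribosomal protein genes span 0.01 to 0.87 between quartiles, against -0.59 to 4.03 for all genes.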

How the data were processed

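Per the submitters' processing notes, reads were checked with FastQC 0.11.5, trimmed with Trimmomatic 0.39 and quantified with Salmon 0.11.2 on GRCm38.p6, and the authors summed transcripts to genes with tximport (lengthScaledTPM). The deposited values are estimated counts, which were rounded to whole numbers. Counts were summed over the wells of a genotype or library, scaled to CPM over non-mt- counts and compared as log2 ratios. A gene needed at least 100 counts over all wells, a group at 0 was set to 3 counts, and a 2-fold difference was called. Intervals are exact, conditional on the total for ratios and Clopper-Pearson for shares. Those for ratios were tested on simulated Poisson counts with no spread between wells, so the simulation covers counting error only. Those for shares were not simulated. Named genes were the 8 most abundant, the 6 largest and 6 smallest ratios, paralogues with their parents, and the 2 largest and 2 smallest of each translation list. Some genes that this rule names are not reported here. Members and lists were chosen with earlier results of these data known. Copies were found with blastn 2.17.0. TMM factors came from edgeR 4.0.16. Software was Python 3.11.15, numpy 2.4.6, pandas 2.3.3 and scipy 1.17.1.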

Additional observations from a re-analysis of the deposited data

Results flagged for a closer look

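The ribosomal protein share stood out because it differed between the wells poorest and richest in mitochondrial counts in opposite directions in the 2 genotypes. From wells with at most 10% mt- counts to wells above 50%, the median share was higher by 0.19 on the log2 scale in WT wells and lower in Renin-null wells, at -2.84 (-3.28 in YFP1 and -1.88 in YFP2). By summed counts the values were 0.52 (WT) and -2.17 (Renin-null). The mt-like nuclear sequences Gm28437, Gm29216 and Gm10925 held up to 65.6% (WT) and 81.3% (Renin-null) of non-mt- counts in the wells above 50%, and without them the median share was higher by 0.96 in WT wells and stood at -1.70 in Renin-null wells (-1.86 in YFP1 and -1.30 in YFP2). By medians the classes between went another way. WT medians were 0.909% and 0.889% and Renin-null medians 4.02% and 2.90%, at 10% to 25% and 25% to 50% mt- counts. Summed shares were 3.96% (WT) and 3.44% (Renin-null) at 10% to 25%, the opposite order, and 2.58% and 4.84% at 25% to 50%. The difference between the poorest and richest wells was not tested, because each genotype is 1 sample. The evenness of the counts changed along with it, from medians of 30.3 to 2.61 effective genes in WT and 29.7 to 9.36 in Renin-null wells.

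Annotated copies of ribosomal protein genes, which the comparisons left out, held 0.180% of non-mt- counts in Renin-null cells and 0.131% in WT. Single copies, named after their values were seen, differed more. Rps6-ps4, a copy of Rps6, had 15 WT and 10643 Renin-null counts, and Gm17971, a copy of Rps2, had 12524 and 4942.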

How the results depend on the processing

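Values below are log2 ratios of Renin-null over WT unless another pair is named, set against the reported 0.36 for the share, 0.34 for the median gene, 0.18 for the share in YFP2 over YFP1, 0.01 for the difference of large over small subunit counts, and 17 genes at least 2-fold higher and 0 lower. The share was 0.52 with all counts as the denominator (median gene 0.50, YFP2 over YFP1 0.22), 0.18 without Ren1 (median 0.16) and 0.33 without Gm28437, Gm29216 and Gm10925 (median 0.31, libraries 0.17). TMM gave -0.18 and -0.20, with 6 genes higher and 6 lower. The mean over wells gave -0.023, a median of 0.60, 0.24 between libraries, a subunit difference of 0.38, and 29 higher and 12 lower, and the median over wells gave -0.0095 and 0.25 between libraries. Thinning to 10000 counts gave -0.0079, a median of 0.50, 0.23 between libraries, a subunit difference of 0.40, and 28 higher and 13 lower. YFP1 alone gave 0.26, a median of 0.28, a subunit difference of 0.14 and 2 lower, and YFP2 alone 0.44, 0.37 and -0.083. Passing wells gave 0.40, a median of 0.43, 0.11 between libraries and a subunit difference of -0.13. Without wells of over 9000 genes these 4 values were 0.41, 0.39, 0.17 and -0.0027. With near-identical wells counted once, the share, the libraries and the subunits gave 0.33, 0.17 and -0.0019, and without the well of most ribosomal protein counts in each library 0.28, 0.28 and -0.0037. Leaving out each gene's highest well gave a median of 0.51. With no filter the median was 0.35. With -ps symbols added the share was 0.37, the libraries 0.176, the subunits 0.016 and the median 0.57, with 52 higher and 14 lower.

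The next alternatives were chosen after seeing the data. With annotated copies added the share was 0.37, the subunit difference 0.038 and the median 0.35, and with at least 10000 counts per gene the median was 0.33. Leaving out wells over 50% mt- counts gave 0.43 for the share, 0.15 between libraries, -0.12 between subunits and a median of 0.47. Those wells alone gave -2.24, -0.31, 1.75 and -3.09, with 6 higher and 59 lower, and wells to 10% mt- counts gave 0.45, 0.096, -0.18 and 0.59. Without Gm28437, Gm29216 and Gm10925, the median share in wells over 50% against wells to 10% mt- counts gave 0.96 in place of 0.19 (WT) and -1.70 in place of -2.84 (Renin-null). Of the genes recomputed singly and reported at a 2-fold difference or more, these changed sign. The mean over wells gave -0.082 for Rpl17, -0.17 for Rpl27a, 1.88 for Rps6ka2 and -0.998 for Rps7, YFP1 alone -6.64 for Eif2b5, leaving out the highest well 2.25 for Rptor, thinning -1.01 for Rps7, and added copies -0.24 for Rpl12. Wells over 50% mt- counts gave -0.52 for Eif2b5, 2.07 for Eif4h, -4.77 for Rpl10, -0.29 for Rpl12, -4.64 for Rpl17, -5.73 for Rpl27a, -0.85 for Rpl28, -3.09 for Rps19, -0.89 for Rps26, -1.25 for Rps3, -6.70 for Rps7 and -3.56 for Tsc1. Among genes reported at less than 2-fold, the mean over wells gave -1.16 for Rps25, -2.53 for Rpl36a, -3.15 for Rpl36al, 0.47 for Rpl3 and 0.57 for Rpl5. Of 797 values recomputed for single genes, 161 moved by less than their counting interval, and 60, in 29 genes, had the other sign. Unrounded counts moved no value for the genes as a whole beyond it. The cause of these changes was not tested. No paired analysis was possible because replicate numbers only name wells and each genotype is 1 sample. Depth limits wells under 100000 counts and genes counted in few wells most.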

Other observations

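Single ribosomal protein genes differed between the Renin-null libraries in ways that genotype does not enter. Rps16 (1.32), Rps20 (1.10), Rps26 (1.09) and Rplp1 (1.02) were at least 2-fold higher in YFP2 than in YFP1 on the log2 scale, and Rpl29 (-1.51), Rps27l (-1.25) and Rpl22 (-1.04) lower. These genes were named after their values were seen, and what differs between the libraries was not tested.

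The ribosomal protein share went with the mRNA of elongation factor Eef1a1 in the Renin-null libraries, with a Pearson correlation over wells of 0.50 in YFP1 (Spearman 0.48, n = 48) and 0.45 in YFP2 (0.24, n = 48), and of -0.07 in WT (-0.06, n = 51). In passing wells Pearson's values were 0.41 (n = 28), 0.53 (n = 29) and 0.29 (n = 15), and Spearman's were 0.23, 0.24 and 0.25, close to each other in all 3 libraries. Within WT wells the Pearson correlation of the share with the Ren1 share of non-mt- counts was -0.06 (Spearman 0.11, n = 51). In WT passing wells it was 0.28 (Spearman 0.16, n = 15). Both sides of each correlation share the denominator of the well.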
